A study of Mus musculus with 16 samples.

Results

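Oxidative phosphorylation subunits are the nuclear-encoded proteins of the respiratory complexes I to IV and of complex V, the ATP synthase. The genes were chosen by symbol from the count table: the Nduf series of complex I, Sdha to Sdhd of complex II, the Uqcr genes of complex III, the Cox4 to Cox8 genes of complex IV and the genes beginning with Atp5. This gave 84 rows of 54838, with 83 symbols, because Atp5o stood in 2 rows. Another 5 rows were pseudogenes with -ps in the symbol and were left out. Complex I had 36 rows, complex II had 4, complex III had 8, complex IV had 18 and complex V had 18. One row, Cox6c2, is annotated as a processed pseudogene in GENCODE M21 although its symbol does not say so.

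RNA was sequenced from spleens of male and female C57BL/6 mice, with no genetic change or treatment given in the labels. In 8 size-selected samples, minced and enzyme-digested spleen was freed of red blood cells and strained, and the material held back on the strainer was lysed; the labels give spleen glia as the source of these samples. The other group was 8 whole spleen samples, for which the labels describe no separate preparation. The same 8 numbers (407, 408, 427 and 435 for males; 436, 445, 447 and 460 for females) occur once in each group, and the series asked which genes are enriched in spleen glia over whole spleen.

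Complex I takes electrons from NADH and complex II, succinate dehydrogenase, takes them from succinate. Both pass them through ubiquinone to complex III and cytochrome c, and complex IV hands them to oxygen. Complexes I, III and IV pump protons across the inner mitochondrial membrane, and complex V makes ATP as protons flow back. All complexes except complex II also contain subunits encoded in mitochondrial DNA. Several complex IV subunits exist as paired isoforms, with a widespread form and a form restricted to tissues such as heart and skeletal muscle, testis or, for Cox4i2, lung and pericytes. Many promoters of nuclear subunit genes carry sites for NRF1, GABP (also called NRF2) or YY1.

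Promoter sequences are shown because sites for these factors are known in many subunit genes. The part of such sites in the expression values was not tested. RefSeq windows on GRCm38.p6, of 250 bases before the start, were found for 65 of the 83 symbols. The NRF1 core GCGCANGCG, searched on both strands like the other motifs, was in 14 of the 65 windows (21.5%), in 5.86% of the windows of all 27025 genes and in 12% of those of the 10532 genes tested. The GABP motif CCGGAAG was in 12 (18.5%), against 7.83% of all windows and 15% of those of genes tested. The YY1 motif AANATGGC was in 6 (9.23%), against 4.49% and 5.23%. At least 1 of the 3 motifs was in 27 windows. A match is a description of the window only. The 4 windows below, chosen after the expression values were seen, are from a complex I gene that fell (Ndufa11, chr17:56717512-56717761, plus strand), a complex II gene called higher (Sdha, chr13:74350241-74350490, minus strand), a widespread complex IV isoform that fell (Cox6a1, chr5:115348959-115349208, minus strand) and a tissue-restricted isoform read only in the size-selected samples (Cox8b, chr7:140900447-140900696, minus strand). They are written 5′ to 3′ on the strand of the gene, ending at the base before the start, with motif matches in capitals.
Ndufa11: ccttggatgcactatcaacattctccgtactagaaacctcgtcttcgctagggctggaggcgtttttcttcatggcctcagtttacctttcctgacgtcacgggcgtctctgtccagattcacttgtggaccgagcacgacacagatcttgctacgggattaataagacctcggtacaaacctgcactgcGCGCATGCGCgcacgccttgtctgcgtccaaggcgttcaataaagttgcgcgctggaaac
Sdha: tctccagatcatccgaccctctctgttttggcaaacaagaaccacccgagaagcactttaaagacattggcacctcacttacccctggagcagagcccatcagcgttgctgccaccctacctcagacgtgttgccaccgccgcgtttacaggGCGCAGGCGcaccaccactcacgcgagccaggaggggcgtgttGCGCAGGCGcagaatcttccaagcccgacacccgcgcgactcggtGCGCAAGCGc
Cox6a1: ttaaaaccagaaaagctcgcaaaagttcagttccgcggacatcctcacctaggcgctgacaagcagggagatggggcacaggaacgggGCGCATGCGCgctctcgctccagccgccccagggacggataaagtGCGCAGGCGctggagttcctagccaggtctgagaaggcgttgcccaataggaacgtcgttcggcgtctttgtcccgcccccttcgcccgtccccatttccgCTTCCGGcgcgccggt
Cox8b: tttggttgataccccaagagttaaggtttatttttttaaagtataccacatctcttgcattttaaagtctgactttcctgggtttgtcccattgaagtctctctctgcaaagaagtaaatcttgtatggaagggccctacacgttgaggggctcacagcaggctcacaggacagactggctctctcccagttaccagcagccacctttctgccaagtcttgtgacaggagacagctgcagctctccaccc
The Ndufa11 window held 2 NRF1 matches, which overlap on opposite strands, and the Sdha window held 3. The Cox6a1 window held 3 NRF1 matches, of which 2 overlap on opposite strands, and 1 GABP match on the reverse strand. The Cox8b window held 0 matches. In the comparison of fractions described next, 12 of 14 members with the NRF1 motif and 40 of 48 without it were called lower, with median log2 fold changes of -0.51 and -0.63. For GABP these were 11 of 12 and 41 of 50 (-0.67 and -0.58), and for YY1 6 of 6 and 46 of 56 (-0.43 and -0.65). These counts are a description without a test.

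Libraries held 13119992 to 19944440 estimated counts in the size-selected group and 12153770 to 16282454 in whole spleen. In the size-selected columns, the deposited values of 3898 genes had been multiplied by up to 3 constants per column (between 0.6587 and 0.9636), and 61 of the 84 member rows carried at least 1 of them. No label or header mentions this, so the counts by complex and most single genes are given both on the deposited counts and on restored counts, in which the constants were divided out; values without a note are on deposited counts. The summed level of 9 glial markers was 75.8 to 574 CPM (counts scaled to the library total after TMM adjustment) in size-selected samples and 1.48 to 7.83 CPM in whole spleen, and higher in all 8 pairs. Levels of other cells' markers differed too; the counts of called markers are a description, since markers scarce in whole spleen can pass the count filter through the size-selected group. Summed levels were higher in the size-selected sample of all 8 pairs for macrophages (3334 to 7908 against 1821 to 3285 CPM, 5 of 8 genes called higher), smooth muscle (925 to 4212 against 14.3 to 89.0 CPM, 8 of 8), fibroblasts (1016 to 3610 against 4.67 to 57.7 CPM, 7 of 7), endothelium (769 to 1890 against 82.8 to 215 CPM, 7 of 7), pericytes (273 to 858 against 10.5 to 23.9 CPM, 6 of 7, Higd1b at 0 in whole spleen) and megakaryocytes (98.6 to 689 against 57.2 to 210 CPM, 7 of 7). They were lower in all 8 pairs for B cells (1026 to 3660 against 5699 to 6996 CPM, 7 of 8 genes called lower), T cells (160 to 501 against 623 to 950 CPM, 7 of 8), neutrophils (141 to 943 against 544 to 2003 CPM, 7 of 8) and erythroid cells (160 to 3581 against 349 to 13784 CPM, 3 of 8). The part of these shifts in the results that follow was not tested. In such bulk samples, fewer cells of a type and less RNA per cell cannot be told apart.

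Most subunit transcripts were lower in the size-selected samples. Of the 78 members past the count filter, 61 fell, 4 rose and 13 were not called (edgeR's quasi-likelihood test, Benjamini-Hochberg adjusted p under 0.05 over all genes). In the same fit 30.4% of the 14510 genes tested were called lower, 37.5% higher and 67.9% in either direction. The members' median log2 fold change was -0.55 (0.683-fold) and that of all genes tested was 0.05. The log2 fold changes of the members called lower ran from -0.26 to -1.79. On restored counts 59 members fell (30.4% of all genes) and 6 rose (37.6%; 68% were called in either direction), with a median of -0.43 against 0.04 for all genes. Of the members, 60 were called in the same direction in both fits. In 31 members every size-selected value lay below every whole spleen value (11.6% of all genes did so) and in 1, Cox4i2, every one lay above (23.3%), while 37 were lower in all 8 pairs (22.2% of all genes). On restored counts every size-selected value lay below every whole spleen value in 19 members (11.2% of all genes).

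The shift of the members relative to other genes depended on whether transcript length and GC content were taken into account. With gene offsets for both, 56 members fell and 5 rose, but 54.7% of all genes were then called lower, 24.4% higher and 79.1% in either direction, and the medians were -0.38 for the members and -0.48 for all genes. Relative to all genes the members' median stood at -0.60 without offsets and at 0.10 with them. The offsets turned the direction of 15 members, 7 of them called lower without the offsets. Calls below hold for these samples as scaled by TMM without offsets.

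**Figure D1:**
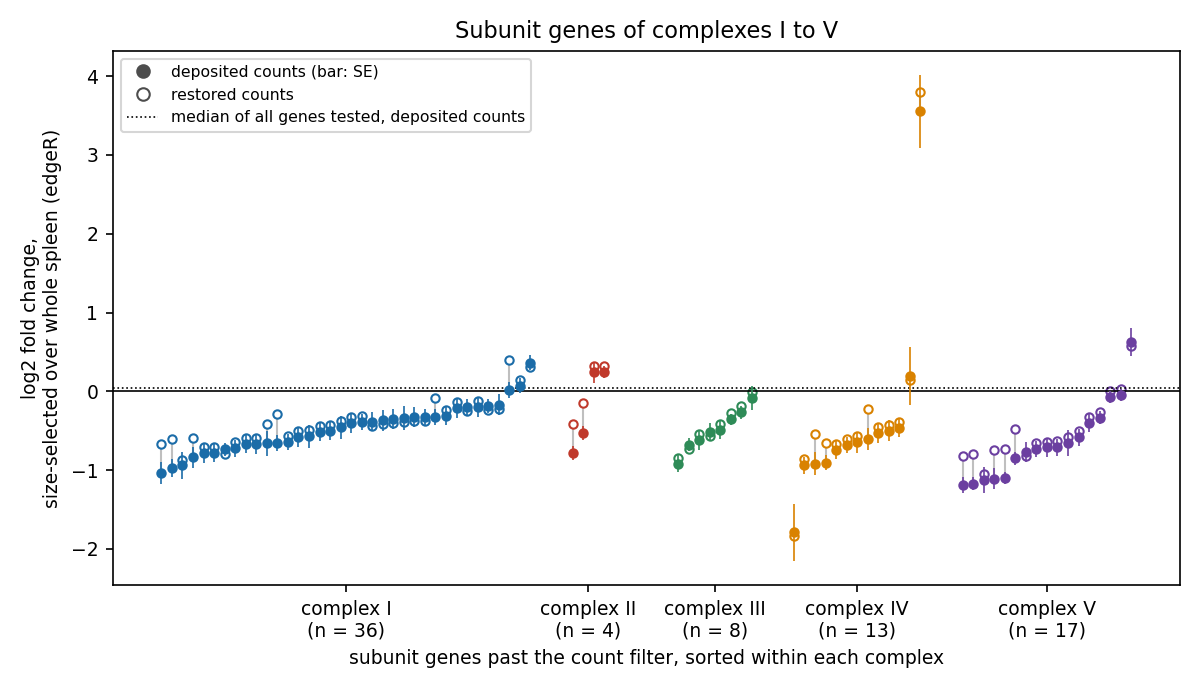
Log2 fold change of each subunit gene past the count filter (size-selected over whole spleen, edgeR), sorted within each complex; filled circles with SE bars are deposited counts and open circles are restored counts. Of 78 genes, 61 were called lower; Cox4i2 at 3.55 and Cox6a2 at -1.79, both of complex IV, lie farthest from 0.

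Complex I was lower in most of its subunits. Of its 36 genes, 27 fell, 1 rose and 8 were not called, with a median of -0.43 (28, 2 and 6, median -0.41, on restored counts). Ndufa2, an accessory subunit (chr18:36742332-36744557), was measured at 47.1, 62.8 and 88.8 CPM (lowest, median and highest) in the size-selected samples and at 102, 131 and 181 CPM in whole spleen. The groups did not overlap. It fell by 1.03 ± 0.14 (SE, log2; n = 8 and 8; edgeR adjusted p = 2.97e-06), and by 0.66 on restored counts, on which the groups overlapped. With the offsets Ndufa2 fell by 0.50, and on restored counts with the offsets its call was lost (-0.13, adjusted p = 0.179, edgeR). Ndufa11, an accessory subunit of the membrane arm, fell by 0.97 ± 0.12 (adjusted p = 8.41e-07, edgeR), with 48.6, 58.6 and 80.3 against 93.4, 120 and 156 CPM. Its restored log2 value was -0.60. Ndufa4, counted with complex I by its symbol although it is now placed in complex IV, fell by 0.72 (0.65 restored), a call lost with the offsets (-0.10).

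The core subunits that carry the electrons include some that did not fall. Ndufs1, the largest subunit of the NADH-oxidising arm, was at 78.6, 82.4 and 88.6 CPM in size-selected samples and at 49.9, 64.4 and 86.3 CPM in whole spleen. The ranges overlapped, but the size-selected value was the higher in all 8 pairs. Ndufs1 rose by 0.36 ± 0.10 (log2, adjusted p = 0.00251, edgeR; 0.31 restored), a call lost with the length and GC offsets, under which the value was -0.06. Ndufv1, which binds NADH, was not called at 0.07 ± 0.09 (113, 140 and 173 against 127, 134 and 159 CPM) and stood at -0.43 with the offsets. Other core subunits, named after their values were seen, did fall: Ndufs3 by 0.66 (0.29 restored), Ndufv2 by 0.64 (0.57 restored) and Ndufs8 by 0.33 (0.38 restored). Among genes called lower only as deposited, Ndufa9 had a log2 value of -0.32 (-0.08 restored) and Ndufs5 of -0.31 (-0.23 restored); Ndufs5 turned to 0.14 with the offsets, and its call was also lost without number 408, 435, 436, 447 or 460 (-0.25 to -0.30).

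In complex II, 2 of 4 genes fell, 1 rose and 1 was not called (1, 2 and 1 on restored counts), while with length and GC offsets all 4 fell. Sdhb, the iron-sulfur subunit, had 104, 122 and 158 CPM in size-selected samples and 199, 211 and 255 CPM in whole spleen, without overlap. It fell by 0.79 ± 0.09 (adjusted p = 3.16e-07, edgeR; 0.41 restored, 0.92 with the offsets). On restored counts the groups of Sdhb overlapped. Sdha, the flavin-bearing subunit that oxidises succinate (chr13:74322254-74350280), had 333, 352 and 394 against 260, 291 and 357 CPM. The ranges overlapped, but Sdha was higher in the size-selected sample of all 8 pairs and rose by 0.25 ± 0.08 (adjusted p = 0.00967, edgeR; 0.32 restored), although with length and GC offsets it fell by 0.35. Without a count filter the call of Sdha was lost (0.19, adjusted p = 0.0903, edgeR). Of the membrane anchors, Sdhd fell by 0.53 ± 0.09 (112, 127 and 147 against 164, 187 and 210 CPM, with no overlap), a call lost on restored counts (-0.15, adjusted p = 0.133, edgeR); with the offsets it fell by 0.56. Sdhc was at 66.0, 93.0 and 148 against 75.5, 84.1 and 105 CPM, with wide overlap. Its log2 value was 0.24 ± 0.13 (not called), 0.32 restored (adjusted p = 0.0476, edgeR, or 0.0694 with the number as a block) and -0.43 with offsets.

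In complex III, 7 of 8 genes fell and 0 rose (6 and 0 on restored counts), while with length and GC offsets 5 fell and 2 rose. The 2 were Uqcrb, a small subunit, which went from -0.49 to 0.25 (adjusted p = 0.0121, edgeR), and Uqcr11, described last. Uqcrh, the hinge protein that contacts cytochrome c1, had 90.7, 126 and 138 CPM against 180, 219 and 275 CPM. The groups did not overlap on deposited or restored counts, and Uqcrh fell by 0.92 ± 0.11 (adjusted p = 8.43e-07, edgeR; 0.84 restored, 0.30 with the offsets). Uqcrfs1, the Rieske iron-sulfur protein, carries no constant and fell by 0.68 ± 0.09 (136, 167 and 178 against 199, 265 and 277 CPM, no overlap). The core protein Uqcrc2 fell by 0.26 on deposited counts and missed the threshold on restored counts (-0.19, adjusted p = 0.0558, edgeR). Uqcr11, the smallest subunit, was not called at -0.08 ± 0.15 (67.9, 90.8 and 147 against 85.9, 94.5 and 133 CPM) and stood at 0.04 with library totals. With the offsets it was called higher at 0.39 (adjusted p = 6.45e-04, edgeR).

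Complex IV had 13 genes past the filter, of which 11 fell and 1 rose (10 and 1 restored). The 1 that rose was Cox4i2, which passed the filter through the size-selected group. With length and GC offsets 9 fell, and on restored counts with the offsets 5 fell and 7 were not called. In that last fit 8006 of all 14565 genes tested were called lower. Cox5b, a nuclear-encoded subunit that binds zinc, had 75.8, 94.9 and 108 CPM in size-selected samples and 146, 172 and 234 CPM in whole spleen, without overlap, and fell by 0.94 ± 0.11 (adjusted p = 4.35e-07, edgeR; 0.86 restored). Cox7c fell by 0.92 ± 0.14 (60.1, 79.5 and 112 against 112, 150 and 198 CPM), and by 0.54 on restored counts. Cox6c had a deposited log2 value of -0.60 and lost its call on restored counts (-0.23, adjusted p = 0.154, edgeR) and with the offsets (-0.17, adjusted p = 0.13, edgeR). The widespread isoform Cox4i1 fell by 0.46 ± 0.11 (337, 417 and 515 against 495, 562 and 698 CPM), with 1 pair in the other direction.

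Complex V held the largest falls among abundant members. All 3 genes for the membrane ring of subunit c, whose mature proteins are the same, fell, with log2 fold changes of -1.19 ± 0.10 for Atp5g1, -1.17 ± 0.09 for Atp5g3 and -1.12 ± 0.16 for Atp5g2 (adjusted p = 7.14e-09, 1.68e-09 and 5.72e-06, edgeR). On restored counts the falls were 0.81, 0.80 and 1.05. Atp5g3 (chr2:73908447-73911326) had 172, 203 and 231 CPM in size-selected samples and 371, 459 and 515 CPM in whole spleen. For each of the 3 genes the groups did not overlap on either kind of counts. Atp5d and Atp5e, of the central stalk, fell by 1.10 ± 0.08 and 1.11 ± 0.13 (0.73 and 0.74 restored, 1.60 and 0.42 with the offsets).

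The catalytic head of the ATP synthase did not fall as deposited. Atp5b, the beta subunit that forms ATP, had 1415, 1465 and 1633 CPM in size-selected samples and 1417, 1478 and 1764 CPM in whole spleen. Atp5a1, the alpha subunit, had 807, 858 and 946 against 833, 891 and 1057 CPM. The ranges overlapped for both genes. Atp5b was lower in the size-selected sample of 5 of 8 pairs and Atp5a1 in 7 of 8. The log2 values were -0.05 ± 0.08 (adjusted p = 0.594, edgeR; 0.03 restored) and -0.08 ± 0.07 (adjusted p = 0.382, edgeR; -0.00048 restored); with the offsets both genes fell, by 0.46 and 0.83. Together 14 of 17 complex V genes past the filter fell (median -0.71, or -0.64 restored) and 1 rose. The 1 that rose was Atp5s, a coupling factor B gene outside the naming rule and named after its value was seen, at 0.63 ± 0.18 (3.14, 5.43 and 7.37 against 3.07, 3.46 and 3.89 CPM). Members whose relatives or processed pseudogenes share sequence, the Atp5g genes among them, are less certain, since RSEM divides shared reads among them.

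**Figure D2:**
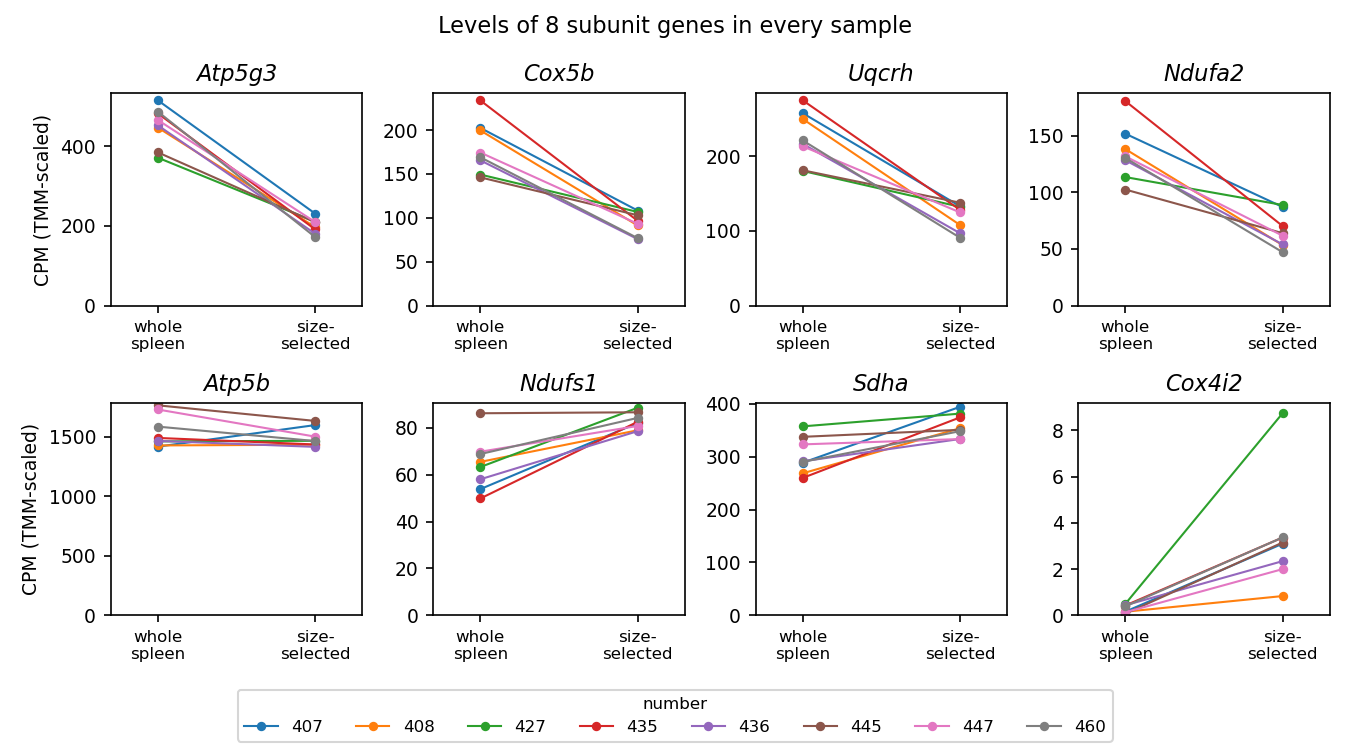
CPM (TMM-scaled, deposited counts, axes from 0) of 8 subunit genes in every sample; each line joins the 2 samples of a number. Atp5g3, Cox5b, Uqcrh and Ndufa2 are lower in the size-selected sample of all 8 numbers, Atp5b hardly moves, Ndufs1 and Sdha are higher in all 8 as deposited (both turn with length and GC offsets), and Cox4i2 starts below 0.490 CPM in whole spleen.

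Among the alternative isoforms of complex IV, Cox4i2 went up and Cox6a2 went down. Cox4i2 (chr2:152754173-152765037), the form of subunit IV known for its part in oxygen sensing, had 0.0687, 0.271 and 0.490 CPM in whole spleen and 0.830, 3.12 and 8.73 CPM in the size-selected samples. The groups did not overlap, number 427 was highest and number 408 lowest among the size-selected samples, and the log2 fold change was 3.55 ± 0.46 (11.7-fold; 3.79 restored). Whole spleen libraries held 1 to 6 counts of Cox4i2, so it passed the count filter through the size-selected group, where it was high. Without a count filter the value was 3.49 (adjusted p = 1.57e-06, edgeR), and at a minimum count of 50 the gene was not tested. It was still scarce: per kilobase of transcript, Cox4i2 stood at 4.58 and Cox4i1 at 550 CPM in the size-selected samples. The authors' deposited table gives Cox4i2 a log2 fold change of 3.63 (SE 0.477) and mean TPM of 10.2 and 0.543. Cox6a2, the heart and skeletal muscle form of subunit VIa, fell like most of complex IV, with 0.481, 1.73 and 3.46 against 3.66, 4.80 and 11.8 CPM. Its groups did not overlap either, and it fell by 1.79 ± 0.36 (adjusted p = 2.50e-04, edgeR). Markers of heart and skeletal muscle had summed levels of 1.53 to 32.1 CPM in size-selected samples and 0.245 to 0.839 CPM in whole spleen (higher in 8 of 8 pairs, with 1 of 8 past the count filter, Myh6 and Myh7 at 0 in whole spleen and Myh4 at 0 in both groups), the direction opposite to Cox6a2; their part was not tested.

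Ratios of isoforms within a sample do not depend on library scaling. The 5 pairs whose first gene passed the count filter were compared by exact two-sided permutation over all 12870 splits (1 added to each count, adjusted over the 5). The log2 ratio of Cox4i2 to Cox4i1 was -7.17 ± 0.77 in size-selected samples and -10.8 ± 0.79 in whole spleen (SD, n = 8 each), a difference of 3.68 that held its direction in 8 of 8 pairs. It is given as a description, without its p-value, because Cox4i2 passed the filter through the group where it was high. With whole spleen counts of 1 to 6, the size of this difference depends on the count added: it was 3.86 with 0.5 added and 2.84 with 5 added. Cox4i2 made up 0.252 to 1.67% of the pair's counts there and 0.0138 to 0.0988% in whole spleen. The p-value of Cox4i2 to Cox4i1 still counted among the 5, so the adjusted p of the next 2 pairs are smaller than without it. Unadjusted, these were 0.00187 for Cox6a2 to Cox6a1 and 0.0233 for Cox6b2 to Cox6b1 (exact permutation). The ratio of Cox6a2 to Cox6a1 was lower by 1.38 (log2 difference -1.38, adjusted exact p = 0.00466, lower in 8 of 8 pairs). That of Cox6b2, the testis form, to Cox6b1 was higher by 1.03 (adjusted exact p = 0.0389, 7 of 8 pairs), but on restored counts the difference was 0.90 and missed the threshold (adjusted exact p = 0.0653), and leaving out number 407, 436, 445 or 460 also ended the call (0.82 to 1.09, adjusted exact p = 0.0544 to 0.124). Cox6b2 itself was not called, at 0.19 ± 0.37 (1.45, 3.75 and 6.16 against 0.964, 2.97 and 6.10 CPM). The ratios of the subunit c genes did not differ beyond the spread between samples: the difference was -0.02 ± 0.16 (SD of 8 pairs) for Atp5g1 to Atp5g3 and 0.06 ± 0.30 for Atp5g2 to Atp5g3 (adjusted exact p = 0.728 for each), though the second was -0.24 on restored counts. With length and GC offsets the falls of these genes were unequal, 2.03 for Atp5g1, 1.31 for Atp5g2 and 0.80 for Atp5g3.

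Below the count filter were 6 rows. Cox8b, the heart and skeletal muscle form of subunit VIII, had 10, 1, 16, 6, 8, 5, 6 and 1 counts in the size-selected samples (numbers 407, 408, 427, 435, 436, 445, 447 and 460) and 0 in all 8 whole spleen samples. It was detected in every size-selected sample and in no whole spleen sample. Markers of adipocytes, another cell type known for Cox8b in brown fat, summed to 0 to 4.43 CPM in size-selected samples and 0 to 0.412 CPM in whole spleen, with 0 of 6 past the count filter. The heart and skeletal muscle markers given beside Cox6a2 (1.53 to 32.1 against 0.245 to 0.839 CPM, higher in 8 of 8 pairs) moved in the same direction as Cox8b. The part of such cells was not tested. Against a floor of 3 counts per library the mean of Cox8b was at least 2.00-fold higher. The authors' deposited table lists Cox8b with a log2 fold change of 5.07 and mean TPM of 4.08 and 0. Cox7a1, the heart and skeletal muscle form of subunit VIIa, had 3 to 19 counts (median 9) against 2 to 7 (median 4.5), which overlapped. Cox8c and Cox7b2, testis forms, had 0 counts throughout; Cox6c2 had at most 3.4 and the second Atp5o row at most 1.32.

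Summed over all members, subunit transcripts took 1.12 ± 0.11% of the deposited counts in size-selected samples (SD, n = 8; 0.966 to 1.27%) and 1.41 ± 0.08% in whole spleen (1.33 to 1.55%), without overlap. Complex V made the largest share, 0.435 ± 0.031% against 0.538 ± 0.022%, and complex I 0.295 ± 0.043% against 0.373 ± 0.037%. Complex IV took 0.190 ± 0.028% against 0.270 ± 0.031% and complex III 0.123 ± 0.012% against 0.158 ± 0.00686%. Complex II differed by less than its spread, at 0.0743 ± 0.0061% against 0.0755 ± 0.0044%, and its mean log2 ratio turned from -0.03 to 0.10 on restored counts. These shares are a description without a test.

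The size of the shift differed among the 8 numbers. The members' median log2 difference within a pair was -0.92 for 408, -0.89 for 435, -0.81 for 460, -0.68 for 436, and -0.48 for both 407 and 447, but -0.17 for 445 and 0.00096 for 427. In number 427, 39 of 78 members were lower in the size-selected sample, against 54 for number 445 and 67 to 75 for the other numbers. All genes tested had medians of 0.03 to 0.16 in these pairs. On restored counts, 445 stood at -0.06 and 427 at 0.08. Number 427 also had the lowest summed B cell and T cell marker levels among the size-selected samples (1026 and 160 CPM) and the highest for macrophages (7908 CPM), smooth muscle (4212 CPM), pericytes (858 CPM) and endothelium (1890 CPM). The macrophage level of the size-selected sample of number 460, whose members' median was -0.81, was nearly the same at 7773 CPM. Among the whole spleen samples, that of number 427 was also the highest for macrophages (3285 CPM), smooth muscle (89.0 CPM), pericytes (23.9 CPM) and endothelium (215 CPM). The part of these levels was not tested. Without number 427, 67 members fell and 4 rose, and 29.7% of all genes were called lower and 36.9% higher in that fit.

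**Figure D3:**
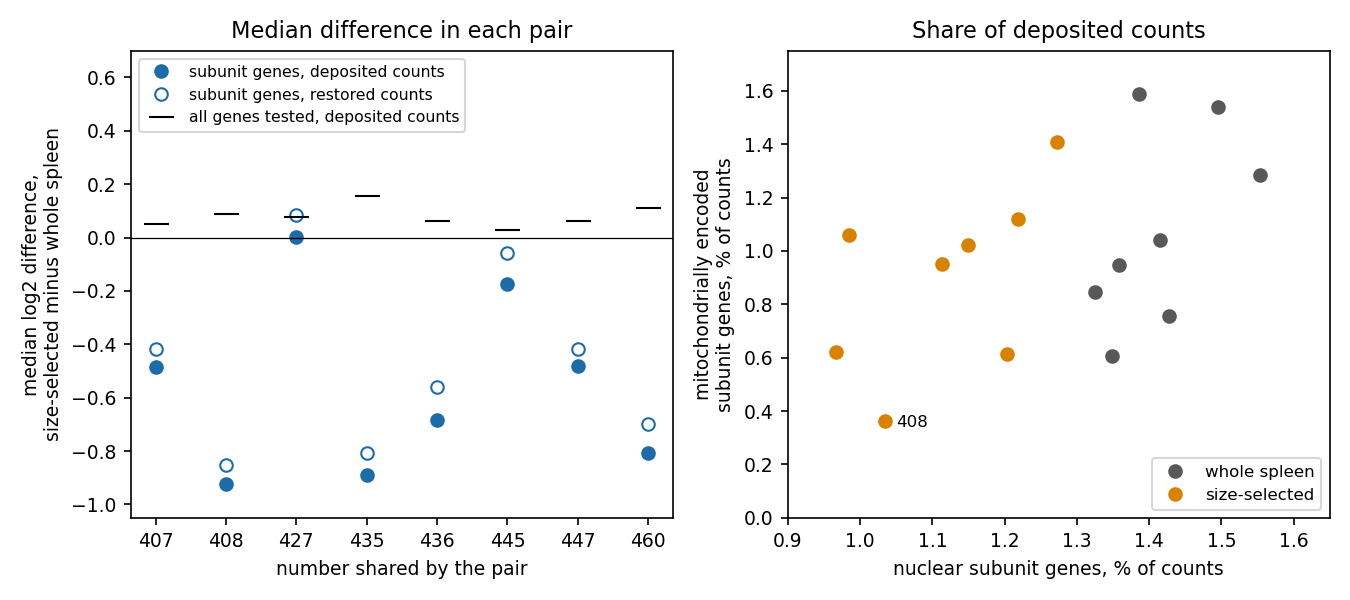
Left, the median log2 difference (size-selected minus whole spleen, TMM-scaled log2 CPM) of the 78 members and of all genes tested, for each number; 427 lies near 0 and 408 at -0.92. Right, percent of deposited counts in nuclear and in mitochondrially encoded subunit genes per sample; the groups separate along the horizontal axis (at most 1.27% against at least 1.33%) and overlap along the vertical.

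The members were also described by coding length, with no test of the difference. Among 57 members with a coding sequence under 600 bases, 49 fell, with a median log2 fold change of -0.62, while among 21 longer ones 12 fell, with a median of -0.32. All genes tested showed the same order: 53.0% of 1871 short genes were called lower (median -0.42) and 26.0% of 11342 longer genes (median 0.16). Spearman's rho between coding length and fold change was 0.42 over the 78 members and 0.24 over 13213 genes, as a description across genes, which are not independent replicates. With length and GC offsets the order turned: the members' medians were -0.30 for the short and -0.58 for the longer ones, and the rho over members was -0.39. On restored counts it was 0.46.

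**Figure D4:**
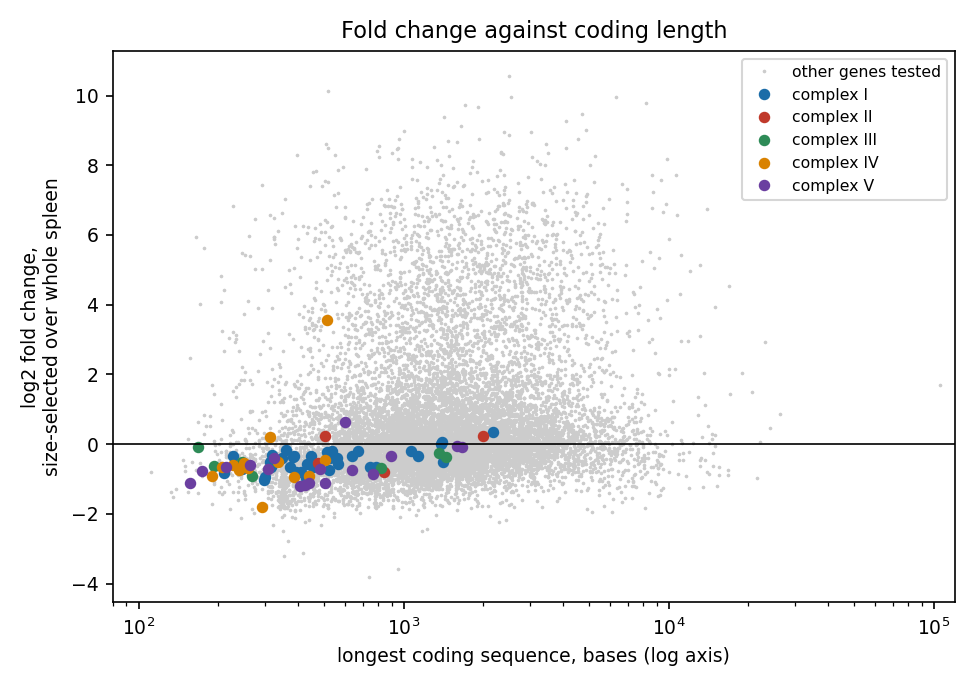
Log2 fold change (size-selected over whole spleen, deposited counts) against the longest coding sequence in bases, log axis; coloured points are subunit genes by complex and grey points the other genes tested. Of the 78 members, 57 have under 600 coding bases, with a median of -0.62, and the 21 longer ones have a median of -0.32.

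The subunits encoded in mitochondrial DNA did not differ in their summed share beyond the spread between samples. Their 13 genes took 0.364, 0.986 and 1.41% of the counts in size-selected samples and 0.607, 0.994 and 1.59% in whole spleen, with wide overlap. The difference of the means was -0.18 percentage points (exact permutation p = 0.314, two-sided; lower in 4 of 8 pairs), and -0.03 without number 408, whose size-selected sample was the lowest. Of 12 genes past the filter, 3 fell and 0 rose, against 30.4% and 37.5% of all genes: mt-Nd6 by 1.23 ± 0.30, mt-Co1 by 0.71 ± 0.23 and mt-Nd3 by 0.68 ± 0.27 (log2). On restored counts 2 fell, and the call of mt-Nd3 was lost (adjusted p = 0.053, edgeR). With length and GC offsets 1 fell, mt-Co1, and 2 rose, mt-Nd3 at 0.41 and mt-Atp8 at 1.49. Without offsets mt-Atp8, a membrane subunit of complex V, had the highest value, 0.02 ± 0.37. In number 408 the share was 0.364% in the size-selected and 1.59% in the whole spleen sample.

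Neighbouring parts of mitochondrial metabolism are given by counts, to be set beside the 30.4% of all genes called lower and the 37.5% called higher, or the 54.7% and 24.4% with length and GC offsets. Among 6 measured subunits or electron carriers outside the symbol rule, 4 fell and 1 was called higher. The latter was Ndufa4l2, a paralogue of Ndufa4 known as a hypoxia-responsive gene and a pericyte marker, at 4.84, 14.4 and 36.9 CPM in size-selected samples and 0.0687, 0.174 and 0.687 CPM in whole spleen. The groups did not overlap; the log2 value of 5.98 ± 0.47 is a description, since this gene too passed the count filter through the size-selected group. Cox7a2l, a supercomplex factor, fell by 0.49 ± 0.13 (0.41 restored), and Ndufab1, the acyl carrier protein, by 0.47 ± 0.10 (0.52 restored). Of 44 assembly factors, 19 fell and 3 rose (33 and 1 with offsets), with a median of -0.26; Cox16 fell by 0.85 ± 0.12 (0.90 restored), and the highest value, 0.47 ± 0.43 for Lyrm7, was not called.

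The tricarboxylic acid cycle had 6 genes higher and 5 lower of 17 (1 and 15 with offsets), with Idh2 at 1.47 ± 0.17 (1.55 restored) and Idh3g at -0.80 ± 0.08 (-0.43 restored). Glycolysis had 7 higher and 6 lower of 19 (3 and 13 with offsets). Its neuronal enolase gene Eno2, at 1 to 17 counts in whole spleen, also passed the filter through the size-selected group; its log2 value of 2.05 ± 0.39 (2.29 restored) is a description. Aldoc had one of -0.73 ± 0.28, a call lost on restored counts (-0.49, adjusted p = 0.126, edgeR). Import and membrane proteins had 5 higher and 11 lower of 19 (0 and 14 with offsets). The fusion protein Mfn2 rose by 0.84 ± 0.14 (0.92 restored), but stood at -0.22, not called, with the offsets. The ADP/ATP carrier Slc25a5 fell by 0.96 ± 0.08 (0.59 restored).

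Among 17 regulators of mitochondrial biogenesis 8 fell and 2 rose. Yy1, whose motif was searched above, fell by 1.52 ± 0.16 (14.0, 20.2 and 28.2 against 37.2, 62.7 and 75.7 CPM, no overlap; adjusted p = 1.03e-07, edgeR; 1.57 restored). Of the other factors whose motifs were searched, Nrf1 was not called (-0.13 ± 0.11). Gabpa was not called either (0.15 ± 0.14), but was called higher on restored counts (0.40, adjusted p = 0.019, edgeR). The GABP subunit genes Gabpb1 and Gabpb2 fell by 0.33 and 0.48. These genes are outside the naming rule and were named after their values were seen. The part of any of these factors in the subunit values was not tested. The coactivator gene Pprc1 rose by 0.49 ± 0.15 (0.44 restored), but fell by 0.84 with the length and GC offsets. Under these offsets, which lowered the median of all genes to -0.48, 16 of the 17 regulators were called lower and 0 higher.

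Sex was tested in each fraction, and 0 members were called in whole spleen (77 tested), in the size-selected samples (79 tested) or for the interaction of sex and fraction (79 tested) by edgeR, DESeq2 or limma-voom. At an unadjusted p under 0.05, edgeR counted 14 of 77 members in whole spleen (16.1% of all genes), 2 of 79 in size-selected samples (4.18%) and 0 of 79 for the interaction (4.72%). After adjustment edgeR called 0.194%, 0.0397% and 0% of all genes, DESeq2 3.87%, 0.145% and 0.019%, and limma-voom 0.202%, 0.0463% and 0%. On restored counts edgeR also called 0 members in each. The members leaned one way: 69 of 77 were lower in females in whole spleen (median log2 difference -0.20, against -0.01 for all genes) and 78 of 79 in the size-selected samples (-0.19 against -0.01). This lean is a count over genes that vary together, with 4 samples per sex, and was not tested as a list. Without the male number 427 in whole spleen, 4 members were called lower in females, against 1.11% of all genes. Their log2 differences, female minus male, were -0.49 for Ndufb2, -0.64 for Ndufa3, -0.57 for Ndufa13 and -0.46 for Cox6a1.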

How the data were processed

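RNA-seq of 16 spleen samples was used, 8 size-selected and 8 whole spleen, grouped by their labels. Trim Galore, STAR, RSEM and DESeq and the build mm10 are named, without versions, per the submitters' processing notes. The deposited table holds the authors' estimated counts per gene, of which all 16 columns were used. A second deposited table of the authors' own comparison gives a log2 fold change with SE, a mean signal, a test score, p-values and group means in TPM and FPKM; only Cox8b and Cox4i2 were read from it. The FPKM values were not used. Constants in the size-selected columns were found from the values and divided out to give restored counts; tried on 8 simulated columns, this search recovered every constant.

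Counts were rounded for edgeR 4.0.16 in R 4.3.3: filterByExpr (minimum count 10), TMM, quasi-likelihood F test with the group as only term, Benjamini-Hochberg over all genes. CPM are TMM-scaled. SE is the fold change over the root of F. Offsets were loess fits (span 0.5) on transcript length and GC content from GENCODE M21 (GRCm38), which also gives the coordinates. DESeq2 1.42.0 and limma 3.58.1 were alternatives. In a simulation of the comparison of fractions with 14622 genes, 96.8% of 185 genes made to differ by 2 (log2) were called. For sex at that size these were 91.7% of 192 in whole spleen, 83.7% of 190 in size-selected samples and 65% of 200 for the interaction. Smaller differences, which include those of every member called lower, were not simulated. Library totals and the number of samples limit the precision.

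Same-numbered samples deviated together (r of 0.12 to 0.38, mean 0.21, against -0.03 for different numbers; the numbers come from the labels), so fits with the number as a block were run. Nothing in the labels says that samples of a group came from separate animals, so p-values measure the spread between these samples, which may be technical. Named genes were the 2 highest and 2 lowest members of each complex whose mean log2 CPM reached 3, the one nearest to 0, the isoform pairs, members below the filter, members whose call changed on restored counts, and the extremes of each pathway list; 1 of these genes is not reported here. Members and lists were chosen with earlier results of these data known.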

Additional observations from a re-analysis of the deposited data

Results flagged for a closer look

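Of 86 groups of 8 samples screened for a sample apart from the others, 3 had one, where chance gives 4.3. All 3 were the whole spleen sample of number 435. Its Ndufv1 level was 7.32 (log2 CPM) against 6.99 to 7.12 in the other whole spleen samples, its Sdhc level was 6.71 against 6.24 to 6.45, and its log2 ratio of Atp5g1 to Atp5g3 was -0.61 against -0.98 to -0.81. No explanation was tested.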

How the results depend on the processing

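The count of members called lower lay between 49 and 67 under every alternative run except a log2 fold change minimum of 1, which left 7 lower and 1 higher. The share of all genes under that minimum is not given here, so these counts are a description. The lowest count, 49, came on restored counts with the offsets, where 8006 of 14565 genes tested were called lower. Without number 427 it was 67, where 29.7% of all genes were. The count called higher lay between 3 and 6, with 7 on restored counts scaled by library totals, where 5750 of 14565 genes tested were called higher. Library totals moved the median of all genes to 0.18 and that of the members to -0.42. The length and GC offsets took the members' median minus that of all genes from -0.60 to 0.095, to 0.083 with the replicate block as well and to 0.20 on restored counts. Under the offsets alone, log2 values turned to 0.39 for Uqcr11, -0.35 for Sdha, -0.064 for Ndufs1, 0.14 for Ndufs5, -0.43 for Ndufv1 and -0.43 for Sdhc. With the replicate block and the offsets they were 0.37 for Uqcr11, -0.35 for Sdha, -0.049 for Ndufs1, 0.13 for Ndufs5, -0.43 for Ndufv1 and -0.46 for Sdhc. On restored counts with the offsets they were 0.47 for Uqcr11, -0.28 for Sdha, -0.12 for Ndufs1, 0.22 for Ndufs5, -0.38 for Ndufv1, -0.36 for Sdhc, 0.21 for Cox6c and 0.041 for Cox7c. Small values near 0 turned elsewhere: with library totals 0.039 for Uqcr11, 0.077 for Atp5b and 0.049 for Atp5a1; on restored counts 0.028 for Atp5b, with the replicate block 0.031 for Atp5b and 0.0026 for Atp5a1, with RLE scaling 0.013 for Atp5b, with library totals 0.057 for Uqcr11, 0.093 for Atp5b and 0.064 for Atp5a1, and without number 427 0.019 for Atp5b. The causes were not tested, beyond that the offsets are built from length and GC content.

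Leaving out each number in turn, the ratio of Cox6b2 to Cox6b1 ranged from 0.82 to 1.19, that of Atp5g1 to Atp5g3 from -0.043 to 0.019 and that of Atp5g2 to Atp5g3 from -0.0054 to 0.11, and members lower in females in whole spleen numbered 0 to 4. On restored counts the ratio of Cox6b2 to Cox6b1 was 0.90, that of Atp5g2 to Atp5g3 -0.24 and the summed complex II log2 ratio 0.10. With the number as a replicate block, 62 members were called lower and 4 higher, Ndufc1 gained a call (adjusted p = 0.0352, edgeR) and no other member's call on deposited counts changed. RLE scaling, DESeq2, limma-voom, sex as a covariate and a minimum count of 50 gave 60 to 62 members lower and 3 or 4 higher. Depth limits Cox8b, Cox7a1 and the other members under the count filter.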
